A study of Mus musculus with 8 samples.

Results

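Dazl, Ddx4, Stk31, Mael, Asz1, Tex19.1, Sycp1, Sycp3, Hormad1 and Tex101 are 10 germline genes, grouped because DNA methylation is known to keep genes of this kind silent in somatic cells. They were found on the arrays by gene name among the non-control probes, which gave 12 of 55681 probes and 10 of 36163 gene names; Sycp3 and Hormad1 have 2 probes each. DNA methylation was not measured here. The values below describe only the RNA of these genes and the part of it that came down with Argonaute (Ago), the protein that carries microRNAs in the RNA-induced silencing complex.

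The cells were mouse embryonic stem (ES) cells of the E14Tg2A line, strain 129/Ola, grown in serum with LIF (0 days of in vitro differentiation, DIV), and cells derived from them in a minimal medium without serum or LIF. These were epiblast-like aggregates (ELA) at 2 DIV, neural progenitor cells (NPC) at 6 DIV and cells termed neural precursors (NPC/Neu), collected at 10 DIV. In the paper's protocol the cells floated as aggregates to 2 DIV and were then dissociated and grown attached. After another dissociation at 6 DIV the medium lacked the B27 supplement, so medium and time changed together from NPC to NPC/Neu. For each of the 4 stages 1 array was hybridized with total RNA and 1 array with Ago-RNA, immunoprecipitated with the anti-pan Ago antibody 2A8 from the cytoplasmic fraction. Each array held RNA pooled from 3 sets of experiments, so no value has a replicate and no p-value can be given.

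Germ cells build RNA-protein granules that store and regulate maternal and meiotic messages, defend the genome against transposons with PIWI-interacting RNAs (piRNAs), and pair homologous chromosomes along the synaptonemal complex at meiosis. Many of the genes for these tasks have CpG-dense promoters that are methylated around implantation, when the epiblast leaves the naive state, and are demethylated again in primordial germ cells. Before that methylation is complete, and in naive ES cells, part of them are transcribed, and E2F6 and the MGA-MAX-PCGF6 Polycomb complex are known repressors of such genes at E2F sites and E-boxes.

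The promoters are shown first because they are what this known silencing acts on. RefSeq promoter windows of 300 bases (250 before the gene start and 50 after it, GRCm38.p6) were found for all 10 genes. In the first window of each gene the observed over expected CpG ratio had a median of 0.782, against 0.384 over all 32851 windows. It reached 0.6 in 9 of the 10 genes (90.0%) and in 35.8% of all windows. It was highest in Ddx4, at 0.978 with 38 CpGs, and lowest in Tex19.1, at 0.575 with 16 CpGs. The E-box CACGTG, which reads the same on both strands, was present in 6 of the 10 genes, against 7.15% of all windows and 11.3% of the windows that reached a CpG ratio of 0.6. The core of the E2F site, GCGGGA on either strand, was also present in 6 genes, against 20.0% and 43.1% of those windows. The 2 motifs share no bases in any of these windows. Windows of 30 bases around 1 E-box of each of the 6 genes, and around the E2F core of Tex19.1, read as follows 5′ to 3′ along the gene, with the motif in capitals.
Ddx4, chr13:112652322-112652351, minus strand: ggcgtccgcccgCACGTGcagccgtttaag
Stk31, chr6:49395472-49395501, plus strand: aggccggccaccCACGTGaccagggctgcg
Mael, chr1:166238950-166238979, minus strand: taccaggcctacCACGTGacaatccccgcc
Sycp1, chr3:102936177-102936206, minus strand: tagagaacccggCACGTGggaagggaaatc
Sycp3, chr10:88459511-88459540, plus strand: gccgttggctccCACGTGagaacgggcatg
Hormad1, chr3:95559608-95559637, plus strand: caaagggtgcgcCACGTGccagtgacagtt
Tex19.1, chr11:121146098-121146127, plus strand: agctggagcatcGCGGGActtggcccttta
Sycp3 and Hormad1 each held a second E-box in the same window. Dazl, Tex101 and Asz1 held neither motif there. A match describes the letters of the window and does not show that a factor binds it.

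**Figure D1:**
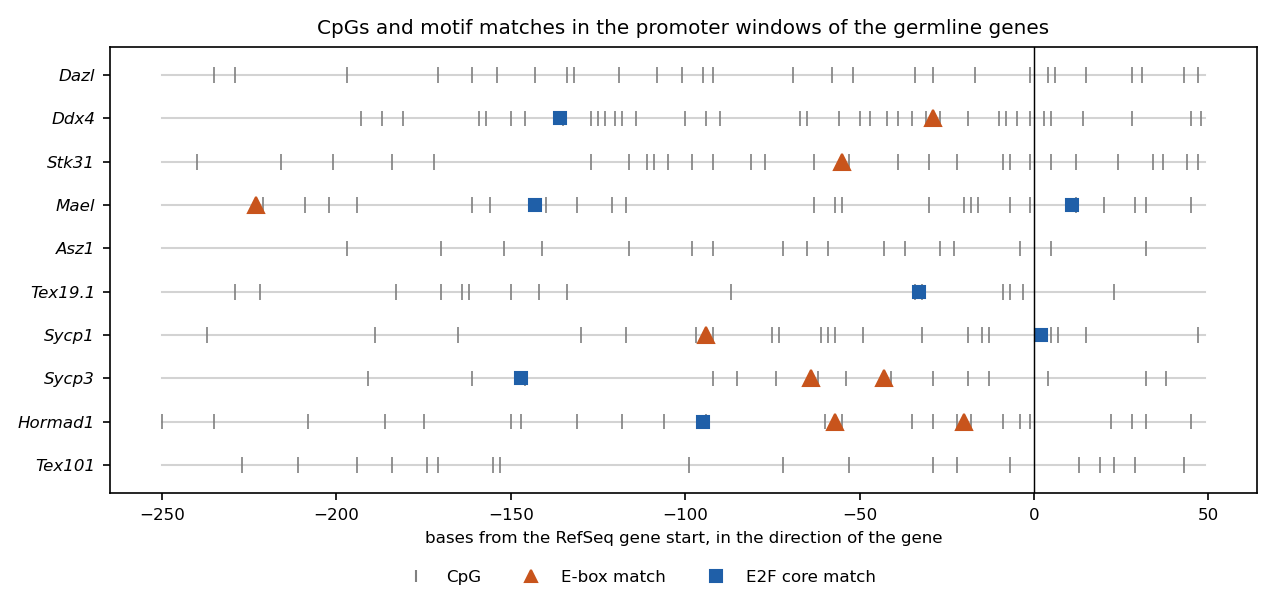
Position of each CpG (grey ticks), E-box match (orange triangles) and E2F core match (blue squares) in the first promoter window of the 10 genes, in bases from the RefSeq gene start along the gene. E-boxes lay in 6 genes and E2F cores in 6 genes, and Dazl, Tex101 and Asz1 had neither.

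In total RNA the germline genes were found mostly in the pluripotent stages. Of the 10 genes, 9 were well above background, by the criterion of the scanner software, in ES cells, and the numbers for ELA, NPC and NPC/Neu were 8, 4 and 3. The Ago-RNA arrays gave 9, 8, 3 and 3. Of all non-control spots, 60.6%, 55.1%, 60.6% and 59.3% were well above background on the total RNA arrays, from ES to NPC/Neu. On the Ago-RNA arrays the shares were 61.2%, 53.4%, 55% and 55.3%. All signals below are log2 values after background correction and quantile normalization over the 8 arrays, listed in the order ES, ELA, NPC and NPC/Neu. Levels are compared within a gene only, since probes differ in brightness. In these bulk samples fewer cells with a transcript and less transcript per cell cannot be told apart.

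**Figure D2:**
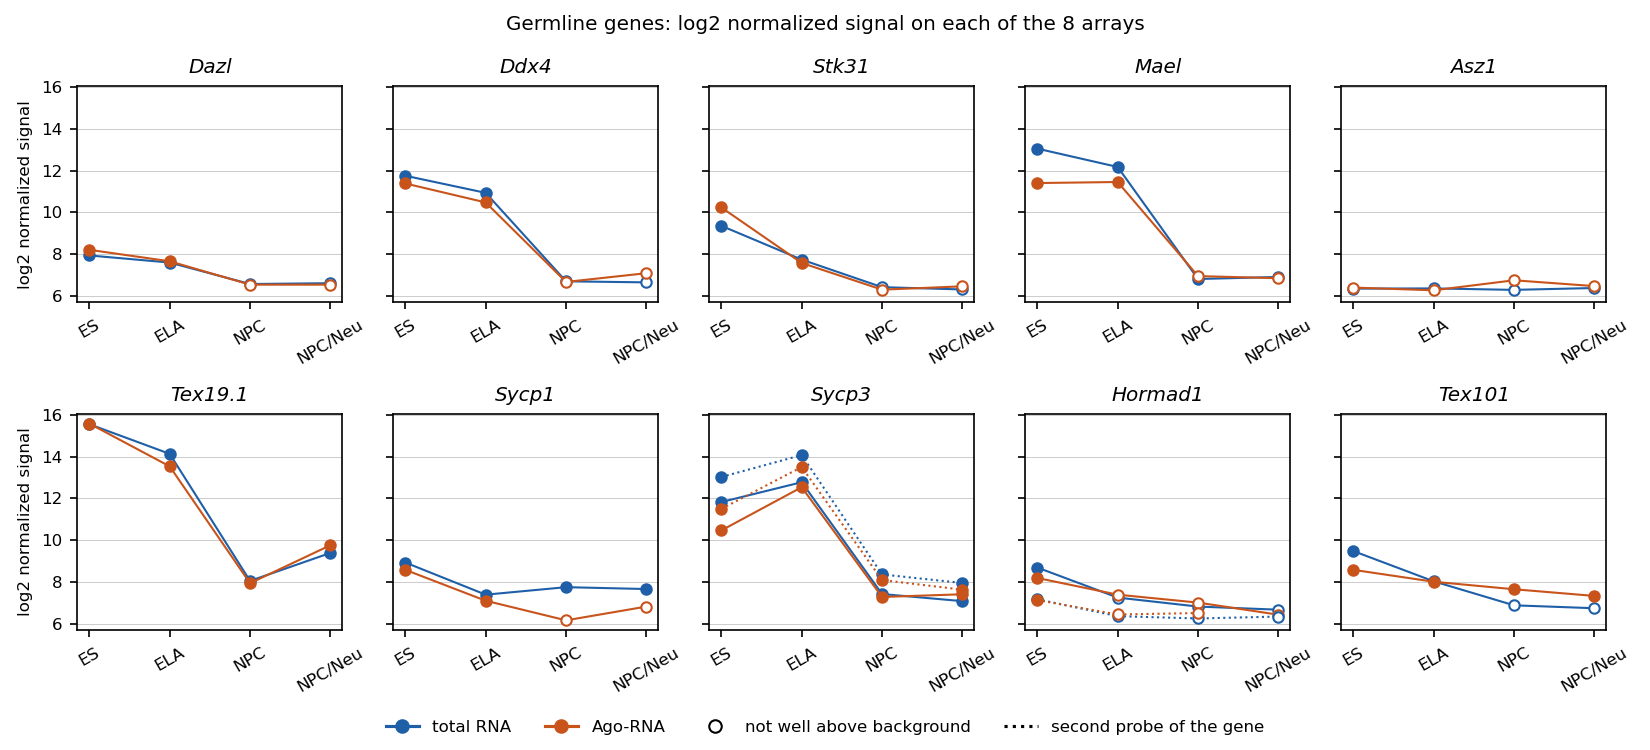
Log2 normalized signal (y axis) of each germline gene at the 4 stages (x axis) in total RNA (blue) and Ago-RNA (orange), 1 array per point; open circles are not well above background, and dotted lines are the second probe of a gene. In total RNA 9 genes were well above background in ES cells and 3 in NPC/Neu, and Asz1 was not on any array.

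Dazl, Ddx4 and Stk31, the genes tied to germ cell RNA granules, were measurable only in the pluripotent stages. Ddx4, the vasa homolog, is an RNA helicase of germ granules, at mm9 chr13:113388541-113442518, with its probe in the 3′ UTR. Its total RNA signals were 11.76, 10.94, 6.70 and 6.65, and the last pair was not well above background. From ES to ELA the change was -0.82. From ELA to NPC the signal fell at least 18.3-fold (4.19 on the log2 scale) in this normalization, and other processing gave changes of -7.73 to -4.03. Dazl, an RNA-binding protein that promotes translation in germ cells (mm9 chr17:50418719-50432924, probe in the 3′ UTR), gave 7.94, 7.60, 6.57 and 6.61. Both neural stages were again not well above background, and the fall from ELA to NPC was at least 1.81-fold. Stk31, a kinase-like Tudor domain protein of germ cells (mm9 chr6:49345603-49419500, probe in the coding sequence), gave 9.36, 7.74, 6.42 and 6.31. Stk31 fell already from ES to ELA, by 1.62 on the log2 scale (3.06-fold), and over the whole course at least 5.93-fold.

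Of the piRNA and transposon defense genes, Mael and Tex19.1 fell steeply after ELA and Asz1 was not measurable. Mael (maelstrom), which acts in transposon silencing (mm9 chr1:168131516-168168875, probe in the 3′ UTR), gave 13.06, 12.18, 6.81 and 6.91 in total RNA. The NPC signal was well above background by a narrow margin, the lowest such signal on that array being 6.75, and the NPC/Neu signal was not. Mael changed by -0.87 from ES to ELA and fell by 5.37 (41.3-fold) from ELA to NPC. With the NPC signal so near background, other processing gave changes of -7.07 to -5.12.

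Tex19.1, a mammalian protein that restrains retrotransposons and is present in pluripotent as well as germ cells (mm9 chr11:121007457-121009633, probe in the exon at the 3′ end), gave 15.56, 14.14, 8.05 and 9.39. It was well above background at every stage. It fell by 1.43 (2.69-fold) from ES to ELA. Into NPC it fell by 6.08 (67.8-fold; -6.68 to -5.85 over the alternatives), and it then rose by 1.34 (2.53-fold) from NPC to NPC/Neu. The probe differs from the annotated Tex19.1 transcript at 1 of 60 bases, and from any stretch of its paralog Tex19.2 at 33 or more. Tex19.2 gave 10.29, 9.97, 7.64 and 7.62. Tex19.2 fell by 2.33 from ELA to NPC and, unlike Tex19.1, changed by -0.02 from NPC to NPC/Neu. Asz1, a mitochondrial protein of piRNA production (mm9 chr6:18000964-18059061, probe across exons of the coding sequence), gave 6.35, 6.36, 6.29 and 6.38 and was not well above background on any array, so no change can be given for it.

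The genes of the meiotic chromosome axis and synaptonemal complex did not move alike. Sycp3 makes the lateral elements of the complex (mm9 chr10:87922314-87935981). Its 2 probes, the first across an exon junction and the second reaching from the coding sequence into the 3′ UTR, gave 11.83, 12.78, 7.42 and 7.08, and 13.03, 14.08, 8.36 and 7.95, all well above background. The first probe overlaps an exon of the gene but matched 0 annotated coding transcripts exactly. Sycp3 was the only measured member that was higher in ELA than in ES cells, with a change of 1.00 in the mean of its probes that lay just under the limit before rounding. It then fell by 5.54 (46.7-fold) from ELA to NPC, with -6.28 to -5.30 over the alternatives.

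Sycp1, which makes the transverse filaments (mm9 chr3:102622422-102740023, probe in the 3′ UTR), gave 8.93, 7.39, 7.75 and 7.66. It fell by 1.54 (2.91-fold) from ES to ELA and then changed by 0.35 and -0.09, so it was still well above background in both neural stages. Hormad1, which marks unsynapsed chromosome axes (mm9 chr3:95363599-95391593), gave 8.69, 7.25, 6.82 and 6.67 on the probe in its coding sequence, and 7.17, 6.36, 6.25 and 6.34 on the probe that reaches into the 3′ UTR. Only the ES signals were well above background. The fall to ELA, 1.12 on the log2 scale, is bounded at 1.77-fold or more. Tex101, a surface protein of testicular germ cells (mm9 chr7:25453031-25457069, probe in the 3′ UTR), gave 9.48, 8.03, 6.88 and 6.74. It fell by 1.45 (2.72-fold) from ES to ELA, and at least 2.22-fold from ELA to NPC, where it was no longer well above background.

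Counted together, a gene was called where the log2 change was 1 or more in size and a probe was well above background at either stage. From ES to ELA, 5 of 9 measurable members fell (Stk31, Sycp1, Tex101, Tex19.1 and Hormad1) and 0 rose, against 4.55% of all 24491 measurable genes that fell and 4.41% that rose. The median change was -1.12 over the 9 genes and -0.00 over all measurable genes. From ELA to NPC, 7 of 8 fell, all but Sycp1, against 9.57% of 24851 genes, and 0 rose, against 10.3%. Of these 7, 4 fell by 2.5 or more (Tex19.1, Sycp3, Mael and Ddx4), against 1.91% of all genes. From NPC to NPC/Neu, 1 of 4 rose (Tex19.1), against 5.37%, and 0 fell, against 3.96%. Between the ends of the course 9 of 9 fell, against 16% of all genes, each by 1 or more, and the later signal of 6 of them was not well above background. Where both ends were measured, the log2 change was -6.17 for Tex19.1, -4.92 for Sycp3 and -1.27 for Sycp1. A gene that is measurable only at the earlier stage can only be lower later, so these counts describe the members and are not independent support.

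The spread of a difference between arrays can be taken only from spots of the same probe. Over 399 probes printed in 10 spots, its SD was 0.219 to 0.231 on the log2 scale for total RNA and 0.207 to 0.246 for Ago-RNA against total RNA. It covers spot noise and not the spread between cultures. The changes of Dazl from ES to ELA (-0.33) and of Sycp1 from ELA to NPC (0.35) were within 2 such SDs, while the called total RNA changes with both stages well above background exceeded 4. The bounds on the falls of Hormad1 from ES to ELA (0.82 on the log2 scale) and of Dazl from ELA to NPC (0.86) were between 3 and 4. Both bounds lie below the log2 limit of 1, so these calls rest on a later signal not well above background.

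**Figure D3:**
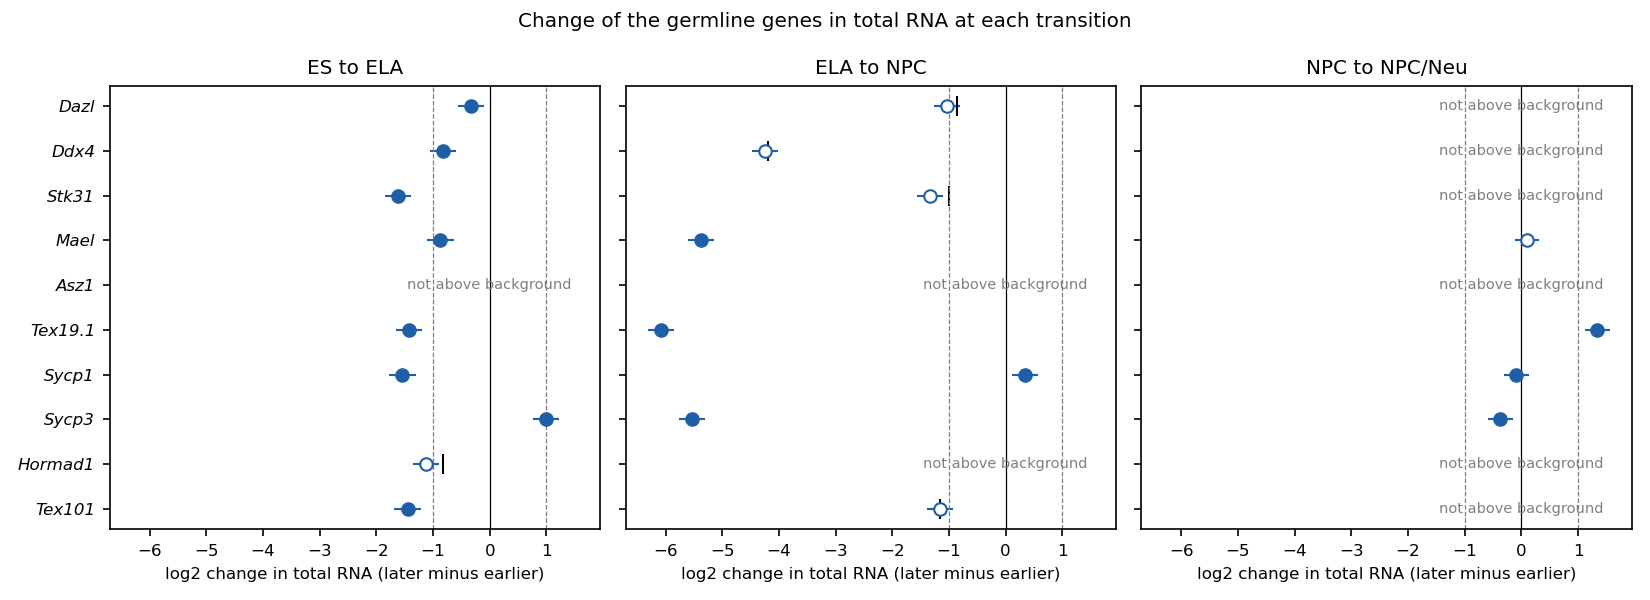
Log2 change in total RNA (x axis, later minus earlier stage) of each germline gene at the 3 transitions, with bars of 1 SD between spots; open circles have 1 stage not well above background, with the bound as a black tick where there is one, and dashed lines mark a change of 1. From ELA to NPC, Tex19.1, Sycp3, Mael and Ddx4 moved by -6.08 to -4.24, and Sycp1 by 0.35.

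**Figure D4:**
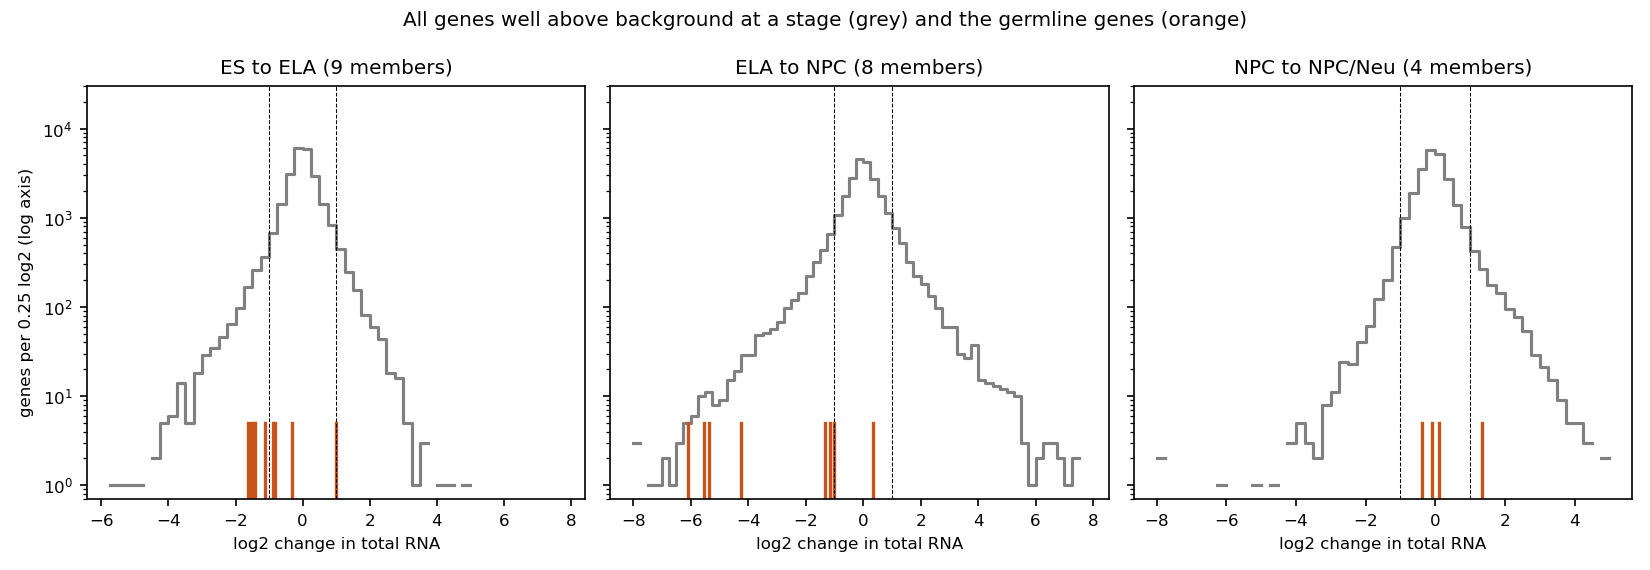
Number of genes (log axis) per bin of 0.25 of log2 change in total RNA at the 3 transitions, for all measurable genes (grey; empty bins are blank) and the measurable germline genes (orange ticks); dashed lines mark a change of 1. The orange ticks lie mostly left of 0 in the first 2 transitions, and at the last transition Tex19.1 is the tick to the right of 1.

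Stage markers moved along the same course. The 9 naive pluripotency genes on the list were all well above background at every stage, and the log2 of their summed total RNA signal was 17.67, 15.40, 12.23 and 13.23 in stage order. All 9 fell from ES to ELA and 8 fell from ELA to NPC. From NPC to NPC/Neu, where Tex19.1 rose, 4 of the 9 rose as well, among them Esrrb by 1.96 and Fgf4 by 1.56. Pou5f1 was 7.98 and 8.31 at these last stages. Neural genes rose to a summed signal of 17.65 in NPC/Neu from 14.05 in ES cells, and 6 of 7 rose from ELA to NPC. Primed epiblast genes summed to 16.49, 17.51, 16.41 and 16.68, and those shared by naive and primed cells to 17.42, 17.52, 15.16 and 14.44. Single genes of both lists moved more than these sums. From ELA to NPC 4 of 6 primed genes fell and 0 rose, with a median change of -2.64. Of the shared genes 3 of 4 fell and 0 rose, with a median of -4.15.

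Genes of other lineages moved as well. Mesoderm and fibroblast genes summed to 12.98, 14.15, 13.03 and 12.75, with 5 of 6 well above background. Into NPC 4 of 5 rose, among them Col1a2 by 1.21, and Thy1 fell by 5.79; the rise of Kdr (1.84) changed sign in 2 of the alternatives. Primitive endoderm genes summed to 9.79, 10.17, 11.29 and 10.89, with 3 to 5 of 6 well above background, and Foxa2 (1.54) and Dab2 (1.68) rose from ELA to NPC. The part of such changes in cell state in the values of the germline genes was not tested. Markers of Sertoli and Leydig cells summed to 13.15, 13.74, 13.15 and 13.15, with 3 or 4 of 5 genes well above background. Single genes of that list moved more than its sum: Sox9 was at least 2.1-fold higher in ELA than in ES cells and rose by 2.62 from ELA to NPC, and Wt1 rose by 1.03 and was then at least 41.1-fold lower. Genes of late spermatogenesis summed to 11.20, 11.34, 10.73 and 10.67, with 3 to 8 of 13.

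Other genes of the same germ cell tasks were counted from lists chosen with earlier results of these data known. Beside the counts of these and the marker lists above, 4.55% of all measurable genes fell and 4.41% rose from ES to ELA. From ELA to NPC 9.57% fell and 10.3% rose, and from NPC to NPC/Neu 3.96% fell and 5.37% rose. Of the piRNA pathway genes on the list, 14 of 18 were measurable from ELA to NPC, of which 9 fell and 2 rose. Among those measured at both stages, Tdrd12 (-4.57) and Tdrd5 (-3.21), Tudor domain proteins of the pathway, fell furthest. Gtsf1, a partner of PIWI proteins, was at least 4.00-fold lower, while Tdrkh (2.10) and Tdrd7 (1.92) rose. From ES to ELA, 3 of 14 fell, Gtsf1 (-2.85), Piwil2 (-1.24) and Rnf17 (-1.10), and Tdrd7 (1.27) rose. In the last step 0 of 9 passed the limit in either direction.

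Of the meiosis genes, 4 of 21 fell and 1 rose from ES to ELA. The central element gene Syce1 fell by 1.91, Hsf2bp by 1.11, and Stag3 and Stra8 by 1.03 each, while Mei1, a gene of meiotic recombination, rose by 1.13. The calls of Stag3 and Stra8 were each lost under 1 other processing. From ELA to NPC, 8 of 19 fell and 3 rose. Syce1 fell at least 16.6-fold, Mei1 changed by -2.98 and the meiotic cohesin gene Rec8 by -1.74. Spo11, whose product makes the meiotic double-strand breaks, was at least 2.01-fold higher in NPC, Prdm9 at least 1.75-fold, and Tex15 rose by 1.16. In NPC/Neu 4 of 15 fell, with Mnd1 (-1.88), Syce2 (-1.44) and Spo11 (at least 2.11-fold lower) first, and 0 rose.

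Among regulators of germ cell RNA and primordial germ cell genes, 4 of 10 fell from ES to ELA, led by Prdm14, a regulator of primordial germ cells and naive cells, at least 15.6-fold lower, then Tcfap2c (-2.81) and Ifitm3 (-2.21). From ELA to NPC 6 of 9 fell, among them Dppa3 at least 15.8-fold and Dnd1 by 3.63, while Tcfap2c rose by 4.08. Compared with NPC, in NPC/Neu Nanos2 was at least 3.34-fold higher, and 3 of 9 fell, Lin28a (-2.11), Tcfap2c (-1.47) and Ifitm3 (-1.16).

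The silencers of germline genes did not move in 1 direction. From ES to ELA, when 5 members fell, the de novo DNA methyltransferase genes Dnmt3a and Dnmt3b rose by 1.53 and 1.32, and their cofactor gene Dnmt3l fell by 2.55. The other 12 of 15 silencer genes changed by less than 1 at this step. Of 4 genes whose products oxidize methylated cytosine or excise the oxidized base, 2 fell and 0 rose, Tet1 by 1.26 and Tet2 by 2.61. From ELA to NPC, when 7 members fell, 4 of 15 silencers fell and 0 rose. The log2 change was -5.55 for Dnmt3b, -4.86 for Dnmt3l and -1.57 for the Polycomb subunit gene L3mbtl2. At that step the TET genes parted. Tet1 fell again (-1.34 to -1.14 over the alternatives), while Tet2 rose (2.11 to 2.87). Later, in NPC/Neu, Dnmt3l rose by 1.77.

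In Ago-RNA the germline genes were also measured mostly in the pluripotent stages. Between ES cells and ELA 1 of 9 measurable members rose, against 9.27% of all genes, and 3 fell, against 8.95%. Sycp3 rose by 2.04 (4.12-fold), from 10.98 to 13.03 in the mean of its probes. Stk31 fell by 2.66 (6.32-fold), from 10.24 to 7.58, Tex19.1 by 2.05, from 15.59 to 13.54, and Sycp1 by 1.49, from 8.58 to 7.10. Mael stayed at 11.41 and 11.46. From ELA to NPC 6 of 8 fell, against 10.7%. The falls of Dazl and Stk31 among them had bounds below the limit of 1, at 0.64 and 0.56 on the log2 scale. Tex19.1 fell to 7.94 (48.5-fold), Sycp3 to 7.69 (40.5-fold), Mael at least 21.8-fold and Ddx4 at least 11-fold. Of the 8, 0 rose, against 11.7%. At the last transition Tex19.1 rose by 1.82 to 9.76, 1 of 3 measurable members, against 8.15% of all genes, and 0 fell, against 7.83%.

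Ago enrichment (E) is the log2 Ago-RNA signal minus the log2 total RNA signal of the same probe. It was 1 or more with Ago-RNA well above background in 0 of 9 measurable members in ES cells, against 9.84% of all genes. At the 3 later stages it was so in 0 of 8, 0 of 3 and 0 of 3, against 4.07%, 5.91% and 12% of all genes. With so few members, counts of 0 do not set them apart from all genes. In ES cells E lay from -1.64 to 0.88. It was lowest in Mael, at -1.64, and Sycp3, at -1.36 and -1.54 on its 2 probes, and these 2 of 9 genes passed -1, against 10.1% of all genes. It was highest in Stk31, at 0.88. The ES Ago-RNA array was brighter than the others before normalization, with an upper quartile of 3039 against 1235 for ES total RNA. The E of Mael in ES cells kept its sign in the alternatives, between -1.76 and -1.18, and that of Sycp3 between -1.56 and -1.01.

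In ELA the values lay closer together, from -0.72 for Mael to 0.06 for Dazl. Of the 8 members 0 passed -1, against 2.28% of all genes. Over all genes, 9.84% had E of 1 or more and 10.1% of -1 or less in ES cells, against 4.07% and 2.28% in ELA. The share of all genes that moved by as much as the members below was not counted. E moved up from ES to ELA in Sycp3, by 1.12 and 0.97 on its probes, in Mael by 0.92 and in Tex101 by 0.88. It changed by -1.04 in Stk31 and by -0.62 in Tex19.1. All of these were well above background on the 4 arrays involved. The differences of Dazl (-0.22), Ddx4 (-0.09) and Sycp1 (0.05) were smaller.

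In the neural stages few members could be compared. Tex19.1 had E of -0.11 in NPC and 0.37 in NPC/Neu, after 0.03 in ES cells and -0.59 in ELA. The probes of Sycp3 had -0.13 and -0.27 in NPC, and 0.33 and -0.31 in NPC/Neu, so they differ in sign at the last stage. Tex101 was well above background in Ago-RNA, at 7.65 in NPC and 7.33 in NPC/Neu, but not in total RNA, at 6.88 and 6.74. Its Ago-RNA signal was at least 1.71-fold and 1.45-fold higher there. Sycp1 showed the opposite, with 7.75 and 7.66 in total RNA and 6.16 and 6.82, not well above background, in Ago-RNA, an E of -1.59 and -0.84. Its Ago-RNA signal was at least 1.66-fold and 1.63-fold lower. Tex19.2, in comparison, had E of 1.17 in NPC and 1.82 in NPC/Neu.

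**Figure D5:**
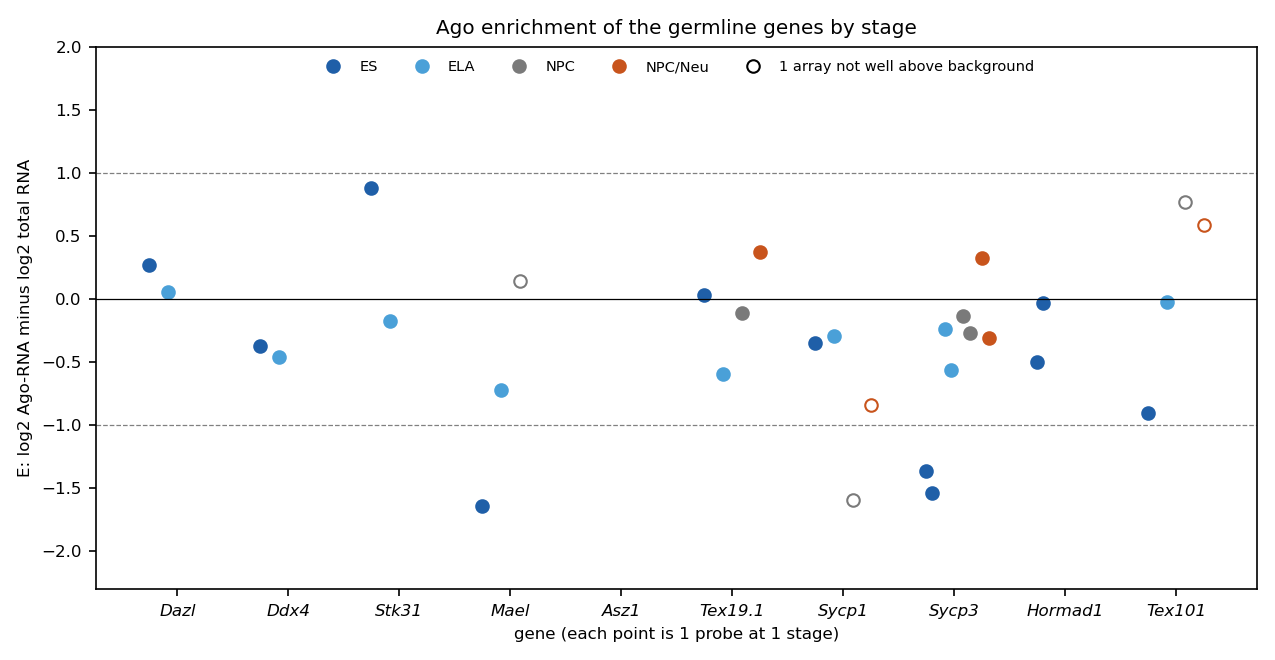
Ago enrichment E (y axis, log2 Ago-RNA minus log2 total RNA) of each probe of the germline genes at the 4 stages (colors); open circles have 1 of the arrays not well above background, points with neither well above background are left out, and dashed lines mark 1 and -1. In ES cells Mael and both Sycp3 probes lie below -1 and Stk31 at 0.88, and no filled point reaches 1.

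A messenger was called released from Ago where its E was at least 2 at the earlier stage with Ago-RNA above a binding threshold, and at most 0.5 at the later one, with a difference of at least 1.5, and loaded where the reverse held. Of the 12 member probes, 0 were released or loaded at any transition. Over all probes 106 (0.192%) were released and 74 (0.134%) loaded from ES to ELA, 48 (0.0869%) and 16 (0.029%) from ELA to NPC, and 16 (0.0289%) and 20 (0.0361%) from NPC to NPC/Neu. The E of Stk31, the highest of the members in ES cells, stayed below the limit of 2 in every alternative tried, at 0.88 to 1.14.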

How the data were processed

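Agilent one-color arrays (SurePrint G3 Mouse) were analyzed for 4 stages, with 1 total RNA and 1 Ago-RNA array each. The authors deposited spot intensity as written by Feature Extraction (10.7.3.1 in the file headers, 9.1 in the submitters' processing notes, annotation build mm9), not normalized between arrays. Mean and local background intensity were corrected with normexp (offset 50; limma 3.58.1, R 4.3.3), irregular spots and control spots were removed, the 8 arrays were brought to the same quantiles on the log2 scale, and spots of a probe and then differences of a gene's probes were averaged. The binding threshold lay 3 SD above the mean of the lower of 2 Gaussians fitted to the Ago-RNA signals (mclust 6.1.1). Where 1 side was not well above background, the fold is a bound. It sets the brighter signal against the higher of the dim signal and the lowest signal well above background on that array. Each bound holds for this normalization only. Under other processing some changes were smaller than their bound, such as those of Ddx4, Syce1, Dppa3 and Wt1 from ELA to NPC. The offset makes fold changes of weak genes smaller. Probes were placed on GENCODE vM1 (mm9), and promoters were read from RefSeq (GRCm38.p6).

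The members and the gene lists were chosen with earlier results of these data known. All members are named; of the lists for meiosis, piRNA, germ cell RNA regulators and silencers, up to the 3 largest rises and falls per comparison among called genes are named, with ties, and Tex19.2. The stage and lineage markers and the TET genes named were chosen after their values were seen. The calling rules were also run on simulated arrays with known changes, as a check of the code only. All 8 arrays lay on 1 slide, and 53.4% to 61.2% of their spots were well above background; the number of arrays limits the precision. RNA of the study's other experiments was not analyzed here.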

Additional observations from a re-analysis of the deposited data

Results flagged for a closer look

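The Ago enrichment of Tex19.1 had opposite signs at different stages on arrays where all 4 signals were well above background. It was -0.59 in ELA and 0.37 in NPC/Neu, and both values exceeded 1 SD between spots. The sign of each held in the alternatives, which gave -0.67 to -0.14 in ELA and 0.21 to 0.59 in NPC/Neu. With 1 array per condition the difference was not tested.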

How the results depend on the processing

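The alternatives were normexp offsets of 16 and 0, the scanner's processed signal with quantile normalization or scaled to the 75th percentile, separate quantile normalization of each RNA kind, the brightest probe of a gene, leaving out probes not well above background on both arrays compared, and stricter limits (2.5 for changes, 2 for E). Of 73 member values compared, 0 of the called ones changed sign, while 9 smaller ones did. These were E of Dazl (-0.21 to 0.34), Ddx4 (-0.38 to 0.09) and Tex19.1 (-0.41 to 0.29) in ES cells, of Dazl (-0.32 to 0.11), Sycp3 (-0.56 to 0.07) and Tex101 (-0.29 to 0.01) in ELA and of Sycp3 (-0.77 to 0.04) in NPC/Neu, and the changes of Mael in Ago-RNA from ES to ELA (-0.01 to 0.05) and of Sycp1 in total RNA from NPC to NPC/Neu (-0.12 to 0.09). Of 21 called values measured on both sides, 8 moved by over 1.5 times. Beside those given with the results for total RNA from ELA to NPC, they were Sycp3 in total RNA from ES to NPC/Neu (-5.85 to -4.66) and, in Ago-RNA, Sycp1 from ES to ELA (-2.08 to -1.49), Sycp3 (-6.49 to -5.34) and Tex19.1 (-6.49 to -5.60) from ELA to NPC and Tex19.1 from NPC to NPC/Neu (1.82 to 2.43). From ES to ELA, 1 member (Sycp3) rose in total RNA under both offsets, both uses of the processed signal, separate quantile normalization and the brightest probe. With only probes well above background on both arrays, 3 members fell from ELA to NPC in total RNA, 2 in Ago-RNA, and 3 from ES to NPC/Neu, because members not measurable at the later stage are left out. With the stricter limit 0 members fell and 0 rose in total RNA from ES to ELA, 4 fell from ELA to NPC, and 0 rose from NPC to NPC/Neu; in Ago-RNA 1 fell and 0 rose from ES to ELA, 0 rose from NPC to NPC/Neu, and 0 members had E of -2 or less in ES cells. With the processed signal 6 members (quantile) or 5 (75th percentile) fell in Ago-RNA from ES to ELA. E reached 1 in 1 member in ES cells (Stk31, separate quantile), in 1 in NPC (Tex101, offset 0 and both uses of the processed signal) and in 1 in NPC/Neu (Tex101, processed signal with quantile normalization); the cause was not tested. No member was released or loaded under the 6 alternatives run for that call, the 5 other normalizations and the filter on dim probes; the brightest probe and the stricter limits were not run for it. No paired analysis was possible because each condition has 1 array. Signals near background limit Dazl, Ddx4, Hormad1, Stk31, Asz1 and, except in NPC total RNA, Mael in the neural stages, as they do Tex101 in total RNA and Sycp1 in Ago-RNA.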
